A study of Mus musculus with 47 samples.

Results

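Glucose enters brain cells through facilitative transporters and is then split by glycolysis, sent through the pentose phosphate pathway or stored as glycogen, and 37 genes of these steps were read from a table of 14221 genes. The 37 were chosen by symbol for their place in these pathways, among genes present in the table. They fall into 9 steps: glucose transport, hexokinase with the isomerase, phosphofructokinase, the PFKFB enzymes, lower glycolysis, lactate, pyruvate dehydrogenase, pentose phosphate and glycogen.

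RNA was sequenced in bulk from the hypothalamus of 47 male mice, 1 library per mouse. All carried the ob/ob mutation, which leaves them without functional leptin, and all were labelled as 11 weeks of age. Each had received an intracerebroventricular (icv) injection, either 3 µg of the growth factor FGF1 or vehicle. The study states that food of vehicle-treated mice was matched to the intake of FGF1-treated mice. Day 1 had 10 FGF1-treated mice and 4 vehicle-treated mice labelled non-diabetic. Day 5 had 9 FGF1-treated mice, 7 vehicle-treated mice labelled non-diabetic and 7 vehicle-treated mice labelled diabetic. Day 42 had 5 FGF1-treated mice and 5 vehicle-treated mice labelled non-diabetic. The source names of all 47 samples mention FGF19 beside FGF1, while the treatment labels name FGF1 or vehicle alone. The protocol gives 7 vehicle-treated mice for Day 5, and the labels give 14. The libraries of each day carried 1 preparation code, so day and preparation cannot be told apart, and treatments were compared within a day.

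Total counts on Day 1 ran from 37281555 to 42887789 in vehicle-treated mice and from 1243280 to 47082403 in FGF1-treated mice, with a median of 33965099 in the latter. FGF1 replicate 1 of Day 1 held that lowest total, and Pdk4 had 12 counts in it, the lowest count of any of the 37 genes in any library. On Day 5 the totals were 7695346 to 30009258 with FGF1, 8005968 to 9864890 in the non-diabetic vehicle group and 7579695 to 12451642 in the diabetic vehicle group. On Day 42 they were 19416026 to 43934003 with FGF1 and 25020821 to 42977914 with vehicle. Vehicle replicate 2 of Day 1 also stood apart. It was the lowest of the 4 vehicle-treated mice for 25 of the 37 genes and the highest for 8, and results that depend on it are given with and without it. Of the 10 FGF1-treated mice of Day 1, replicate 10 was the lowest for 20 of the 37 genes and the highest for 5, and replicate 2 was the lowest for 0 and the highest for 21.

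In the textbook pathway, hexokinase traps glucose as glucose 6-phosphate, phosphofructokinase commits it to glycolysis, and the PFKFB enzymes set the level of fructose 2,6-bisphosphate, which activates phosphofructokinase. Lactate dehydrogenase and the monocarboxylate transporters make and move lactate, while pyruvate dehydrogenase kinases turn off pyruvate dehydrogenase. In the brain, glycogen is stored mainly in astrocytes, and endothelial cells and glia carry the transporter GLUT1 while neurons carry GLUT3.

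On Day 1, both glucose transporter genes, all 4 pentose phosphate genes, Hk2, Pfkfb3, Ldha and Slc16a1 were among the genes that rose in FGF1-treated mice, and Pdk2, Pdk4 and Pygb were among those that fell. In edgeR, 16 of the 37 genes were higher with FGF1 at an adjusted p-value under 0.05, beside 23.4% of all genes, and 7 of 37 were lower, beside 21.6% of all genes. The share that was lower was near that of all genes. Without vehicle replicate 2, 10 were higher, beside 2731 of all 14221 genes, and Pgd and Taldo1 of the pentose phosphate genes did not pass. The median log2 fold change (log2 FC) of the 37 was 0.17, beside 0.01 over all genes. With an absolute log2 FC above 0.5 as well, 7 of 37 were higher, beside 11.5% of all genes, and 1 of 37 was lower, beside 8.05%. The 14 genes that did not pass had log2 FC from -0.29 to 0.21. In these bulk libraries, fewer cells of a type and less RNA per cell cannot be told apart.

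**Figure D1:**
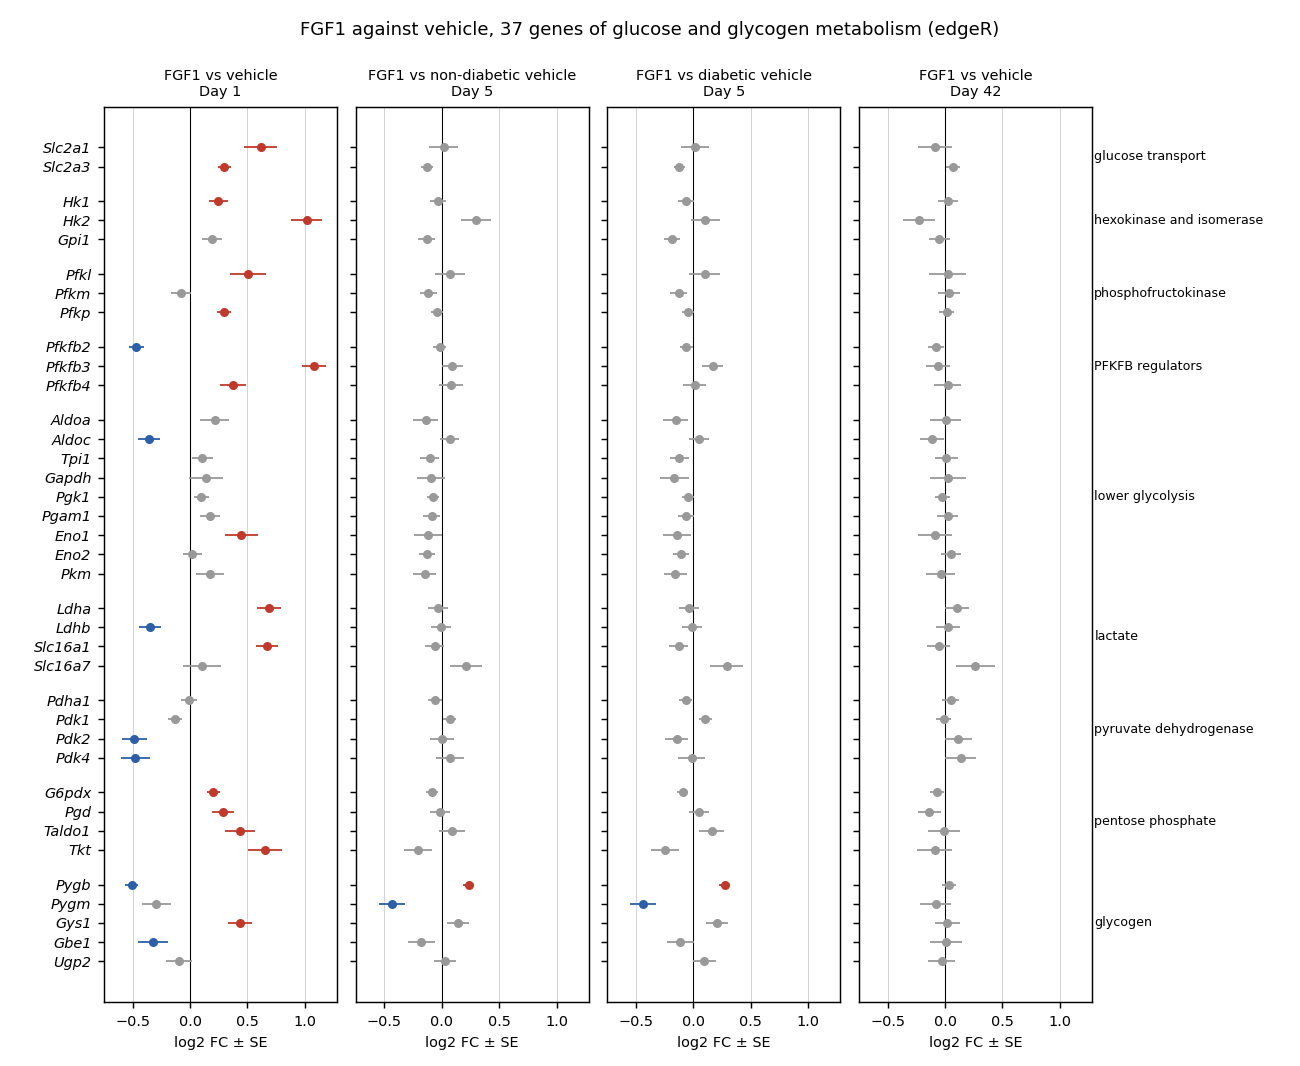
Log2 FC with its standard error (horizontal bars) of each of the 37 genes, grouped by step, for FGF1 against vehicle on Day 1, on Day 5 against each vehicle group, and on Day 42 (red: higher and blue: lower at an adjusted p-value under 0.05, edgeR; grey: not passing). On Day 1, 16 genes were higher and 7 lower, on Day 5 1 gene was higher and 1 lower against each vehicle group, and on Day 42 none passed.

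Both glucose transporters rose on Day 1. Values are normalized counts (CPM), which are counts scaled to the total and the TMM factor of each library. Slc2a1, which encodes the blood-brain barrier and glial transporter GLUT1 (GRCm38 chr4:119108711-119137983), stood at 87.3, 62.4, 56.1 and 93.5 normalized counts in the 4 vehicle-treated mice. With FGF1 it ranged from 84.7 through a median of 113 to 145 in 10 mice. Of these, 8 lay above every vehicle-treated mouse, and the lowest overlapped with the 2 highest vehicle values. Mean Slc2a1 was 115 ± 22.7 (SD, n = 10) with FGF1 and 74.8 ± 18.4 (SD, n = 4) with vehicle, and edgeR gave a log2 FC of 0.61 ± 0.15 (SE) with adjusted p = 0.000576. Slc2a3, which encodes the neuronal transporter GLUT3, rose by 0.30 on the log2 scale (adjusted p = 3.81e-05, edgeR), with 9 of 10 FGF1-treated mice above all vehicle-treated mice. Per kilobase of exon, Slc2a3 had the higher level in vehicle-treated mice of Day 1, at 35.4 ± 3.70 normalized counts per kb against 22.9 ± 5.63 for Slc2a1 (SD, n = 4).

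The hexokinase that rose most was the scarce one. Hk2, an inducible isoform (chr6:82725025-82774454), stood at 7.36, 6.89, 8.73 and 10.4 normalized counts in the vehicle-treated mice of Day 1. In the FGF1-treated mice it ran from 14.0 through a median of 17.1 to 19.6. The groups did not overlap, and all 10 FGF1-treated mice lay above all 4 vehicle-treated mice. The means were 16.7 ± 1.92 (SD, n = 10) and 8.34 ± 1.57 (SD, n = 4), and edgeR gave a log2 FC of 1.01 ± 0.13 (SE) with adjusted p = 1.95e-08. Hk1, the main hexokinase of brain, rose by 0.25 ± 0.08 (SE, adjusted p = 0.0125, edgeR), with 3 of 10 FGF1-treated mice above all vehicle-treated mice. Without vehicle replicate 2 the log2 FC of Hk1 was 0.14 and its adjusted p-value 0.182 in edgeR, so the call rests on that mouse. Per kb, vehicle-treated mice of Day 1 held 60.9 ± 11.5 normalized counts of Hk1 and 1.49 ± 0.280 of Hk2 (SD, n = 4). Gpi1, the isomerase that follows hexokinase, had a log2 FC of 0.19 and an adjusted p-value of 0.0729 in edgeR.

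Among the phosphofructokinase subunits, the liver form Pfkl and the platelet form Pfkp rose and the muscle form Pfkm did not pass. Pfkl (chr10:77986947-78010083) stood at 108, 56.0, 78.2 and 115 normalized counts with vehicle and ran from 73.2 through a median of 134 to 171 with FGF1. The ranges overlapped, with 8 of 10 FGF1-treated mice above all vehicle-treated mice. Mean Pfkl was 127 ± 28.0 (SD, n = 10) against 89.4 ± 27.4 (SD, n = 4), and edgeR gave a log2 FC of 0.51 ± 0.16 (SE) with adjusted p = 0.00746. Without vehicle replicate 2, whose value of 56.0 was the lowest, the log2 FC was 0.34 with an adjusted p-value of 0.0953 in edgeR. Pfkp rose by 0.29 (adjusted p = 0.000133, edgeR), with 9 of 10 FGF1-treated mice above all vehicle-treated mice. Per kb, Pfkm had the higher level, at 153 ± 27.8 normalized counts with vehicle against 69.0 ± 3.34 for Pfkp (SD, n = 4).

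The PFKFB enzymes moved in opposite directions. Pfkfb3, the isoform with the highest ratio of kinase to phosphatase activity (chr2:11471433-11554077), stood at 44.8, 58.5, 69.3 and 62.6 normalized counts with vehicle. With FGF1 it ran from 73.1 through a median of 128 to 142, and all 10 mice lay above every vehicle-treated mouse. The means were 124 ± 19.3 (SD, n = 10) and 58.8 ± 10.3 (SD, n = 4). Its log2 FC of 1.08 ± 0.10 (SE), with adjusted p = 8.29e-12 in edgeR, was the largest of the 37 genes on Day 1. Pfkfb2, which fell by 0.47 on the log2 scale (adjusted p = 9.04e-08, edgeR), was below every vehicle-treated mouse in 10 of 10 FGF1-treated mice. Pfkfb2 shares 25.1% of its 50-base words with the readthrough gene Gm29427, and its exons also overlap Yod1 on the other strand. Pfkfb4 rose by 0.37 (adjusted p = 0.00608, edgeR), and without vehicle replicate 2 its log2 FC was 0.23 with an adjusted p-value of 0.110 in edgeR.

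Lower glycolysis, from aldolase to pyruvate kinase, held 1 gene that rose and 1 that fell among 9, and its median log2 FC was 0.14. Eno1, the broadly expressed enolase, rose by 0.45 ± 0.15 (SE, adjusted p = 0.0107, edgeR), and 6 of 10 FGF1-treated mice lay above every vehicle-treated mouse. Without vehicle replicate 2 the log2 FC of Eno1 was 0.29 with an adjusted p-value of 0.131 in edgeR. Aldoc, the aldolase of astrocytes, fell by 0.36 on the log2 scale (adjusted p = 0.00240, edgeR), and 7 of 10 FGF1-treated mice lay below every vehicle-treated mouse. The other 7 genes (Aldoa, Tpi1, Gapdh, Pgk1, Pgam1, Eno2 and Pkm) did not pass in edgeR with all libraries. Aldoa was called higher in limma, with a log2 FC of 0.35 (adjusted p = 0.0276, limma). Of all 50-base words in their annotated transcripts, 72.2% for Eno1, 82.5% for Gapdh, 68.0% for Pgk1, 41.5% for Pgam1 and 34.4% for Pkm also occur in transcripts of other genes. How the reads of such stretches were assigned in the deposited counts is not stated.

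Of the 4 lactate genes, 2 rose and 1 fell, and the 2 dehydrogenase subunits moved in opposite directions. Ldha, the subunit abundant in glycolytic tissue (chr7:46841475-46855627), stood at 245, 172, 211 and 234 normalized counts with vehicle and ran from 284 through a median of 343 to 419 with FGF1. No value overlapped between the groups. The means were 346 ± 46.8 (SD, n = 10) and 215 ± 32.5 (SD, n = 4), and edgeR gave a log2 FC of 0.69 ± 0.10 (SE) with adjusted p = 5.08e-07. Ldhb, the subunit abundant in oxidative tissue, fell by 0.35 on the log2 scale (adjusted p = 0.00284, edgeR), with 7 of 10 FGF1-treated mice below every vehicle-treated mouse. Slc16a1 encodes the lactate and ketone body transporter MCT1 (chr3:104638668-104658462). It stood at 41.2, 60.5, 55.3 and 45.9 normalized counts with vehicle and ran from 64.4 through a median of 79.9 to 100.3 with FGF1. All 10 FGF1-treated mice lay above all 4 vehicle-treated mice. Mean Slc16a1 was 80.7 ± 9.52 (SD, n = 10) against 50.7 ± 8.79 (SD, n = 4), and edgeR gave a log2 FC of 0.67 ± 0.10 (SE) with adjusted p = 1.56e-07. Slc16a7, which encodes the neuronal transporter MCT2, had a log2 FC of 0.10 and did not pass. Words shared with other genes made up 16.6% of Ldha and 27.0% of Ldhb.

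Of the 4 pyruvate dehydrogenase genes, the kinases Pdk2 and Pdk4 fell and none rose. Pdk2 fell by 0.49 on the log2 scale (adjusted p = 0.000305, edgeR), with 8 of 10 FGF1-treated mice below every vehicle-treated mouse. Pdk4, the kinase raised by fasting and fatty acids in other tissues, fell by 0.48 (adjusted p = 0.00156, edgeR), with 9 of 10 below. Pdha1, the catalytic subunit, had a log2 FC of -0.01, and the kinase Pdk1 had one of -0.13 with an adjusted p-value of 0.0843 in edgeR.

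All 4 pentose phosphate genes rose on Day 1. Tkt, the transketolase of the non-oxidative branch (chr14:30548359-30574720), stood at 169, 93.5, 129 and 184 normalized counts with vehicle and ran from 154 through a median of 223 to 301 with FGF1. The ranges overlapped, with 8 of 10 FGF1-treated mice above all vehicle-treated mice. The means were 226 ± 47.9 (SD, n = 10) and 144 ± 40.8 (SD, n = 4), and edgeR gave a log2 FC of 0.66 ± 0.15 (SE) with adjusted p = 0.000320. G6pdx, the X-linked enzyme that opens the pathway and makes NADPH, rose by 0.20 (adjusted p = 0.00375, edgeR), and its exons overlap Ikbkg on the other strand. Pgd, the next NADPH-producing enzyme, rose by 0.29 (adjusted p = 0.0107, edgeR), and the transaldolase Taldo1 by 0.43 (adjusted p = 0.00623, edgeR). Without vehicle replicate 2 neither Pgd nor Taldo1 passed, with adjusted p-values of 0.143 and 0.0874 in edgeR.

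Among the glycogen genes, the synthase rose and the brain phosphorylase fell. Pygb, which encodes the brain form of the enzyme that releases glucose 1-phosphate from glycogen (chr2:150786735-150831758), stood at 359, 306, 348 and 353 normalized counts with vehicle. With FGF1 it ran from 205 through a median of 239 to 275, and all 10 mice lay below all 4 vehicle-treated mice. The means were 240.1 ± 22.4 (SD, n = 10) and 342 ± 24.2 (SD, n = 4), and edgeR gave a log2 FC of -0.51 ± 0.06 (SE) with adjusted p = 4.45e-10. Gys1, the non-liver glycogen synthase, rose by 0.43 (adjusted p = 0.000667, edgeR), with 9 of 10 FGF1-treated mice above all vehicle-treated mice. Gbe1, the branching enzyme, fell by 0.33 (adjusted p = 0.0379, edgeR). Vehicle replicate 2 had 31.3 normalized counts of Gbe1 and the other 3 vehicle-treated mice had 18.6 to 21.0, and without that mouse the log2 FC was -0.13 with an adjusted p-value of 0.472 in edgeR. Pygm, the muscle phosphorylase, had a log2 FC of -0.29 with an adjusted p-value of 0.0541 in edgeR, and Ugp2, which makes UDP-glucose, one of -0.10.

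Without vehicle replicate 2, 10 of the 37 genes were higher and 7 lower on Day 1, beside 2731 higher and 2279 lower of all 14221 genes. The calls of Hk1, Pfkl, Pfkfb4, Eno1, Pgd, Taldo1 and Gbe1 were lost and Pygm was called lower, with a log2 FC of -0.34 and an adjusted p-value of 0.0477 in edgeR. Pygm was also called lower in 8 other settings, which were DESeq2, its size factors, limma, the stricter count filter and fits without vehicle replicate 1, vehicle replicate 3, FGF1 replicate 1 or FGF1 replicate 2. Each of these kept vehicle replicate 4, at 66.0 normalized counts of Pygm where the other vehicle-treated mice of Day 1 had 45.3 to 45.9. Without that mouse Pygm was not called. Pdk1 was called lower in 4 settings, at -0.18 in DESeq2 (adjusted p = 0.0190), -0.18 with its size factors (adjusted p = 0.0205, edgeR), -0.17 in limma (adjusted p = 0.0301) and -0.17 without vehicle replicate 4 (adjusted p = 0.0385, edgeR). Gpi1 was called higher in 3, at 0.32 in limma (adjusted p = 0.00618), 0.26 without vehicle replicate 4 (adjusted p = 0.0259, edgeR) and 0.23 without FGF1 replicate 10 (adjusted p = 0.0132, edgeR). Without FGF1 replicate 1, the shallow library, 16 were higher and 8 lower, beside 3339 higher and 3132 lower of all genes.

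The other 9 FGF1-treated mice of Day 1 were also left out in turn, in fits chosen after seeing the data. Without replicate 10, 18 genes were higher and 7 lower, beside 3419 higher and 3291 lower of all genes, and Gpi1 and Pgam1 were gained, Pgam1 with a log2 FC of 0.21 (adjusted p = 0.0333, edgeR). Leaving out any of the other 8 gave 16 higher and 6 or 7 lower, beside 3155 to 3375 higher and 2876 to 3149 lower of all genes. Gbe1 lost its call without replicate 2, 3, 5 or 8, with adjusted p-values from 0.0545 to 0.0636 in edgeR. With DESeq2 size factors in place of TMM factors 16 were higher and 9 lower, beside 2814 higher and 3742 lower of all genes, where TMM factors gave 3322 and 3074. The same 7 genes missed the threshold when the libraries of Day 1 were fitted alone, with adjusted p-values from 0.0515 to 0.0899 in edgeR.

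**Figure D2:**
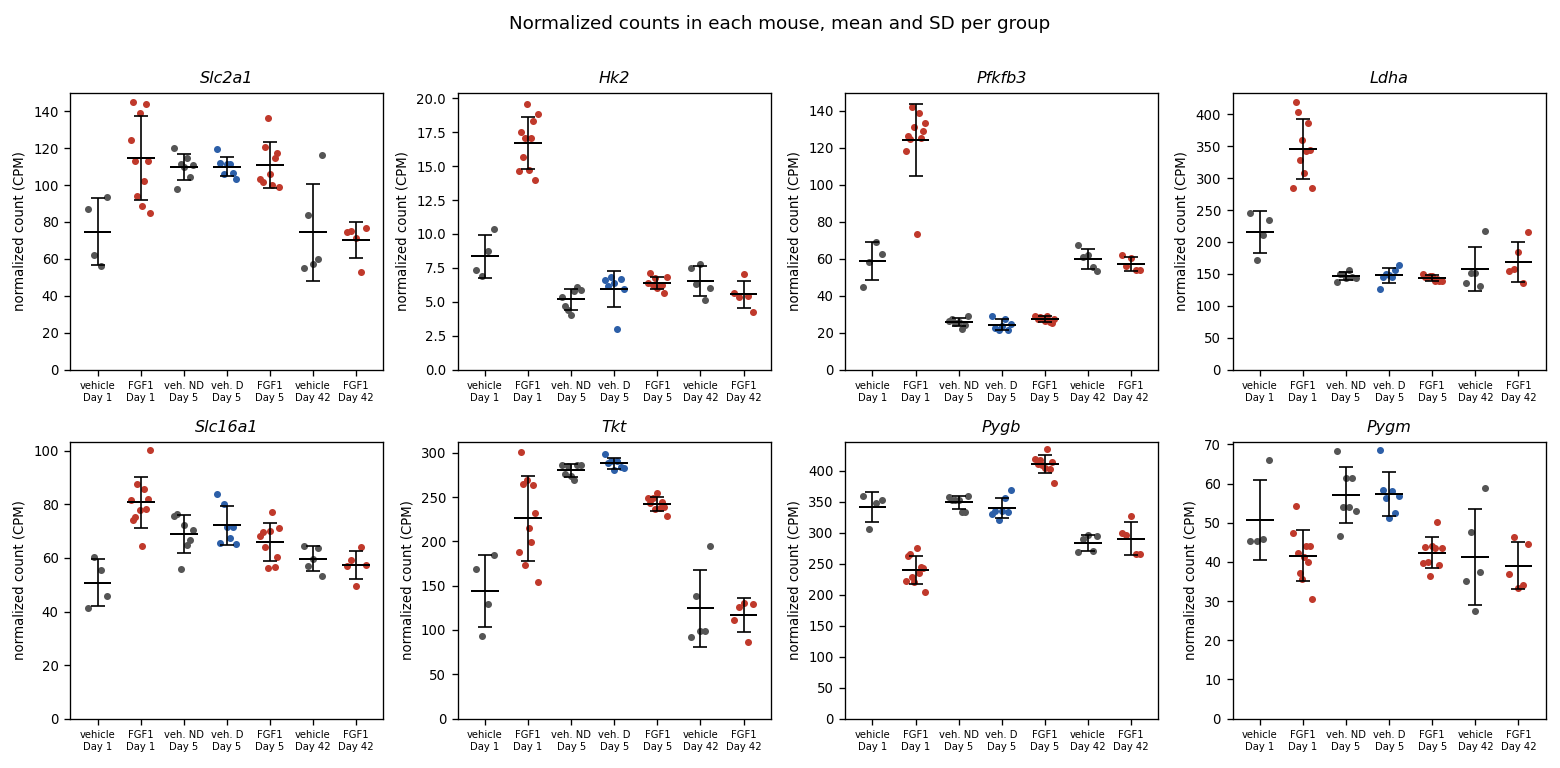
Normalized counts (CPM, vertical axes from 0) of 8 genes in each mouse, with the mean and SD of each of the 7 groups (ND: non-diabetic vehicle; D: diabetic vehicle). On Day 1, Hk2 lay between 14.0 and 19.6 in FGF1-treated mice and between 6.89 and 10.4 in vehicle-treated mice, while Pygb lay between 205 and 275 with FGF1 and between 306 and 359 with vehicle.

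Markers of several cell types also differed with treatment on Day 1, and their part in the results above was not tested. The summed normalized count of 7 of 7 astrocyte markers had a median of 3233 with vehicle and 4247 with FGF1. The most abundant was Slc1a2 with vehicle and Gfap with FGF1, and in edgeR 3 of the 7 were higher and 3 lower. The sum of 6 of 6 oligodendrocyte markers had a median of 4468 with vehicle and 2356 with FGF1, and 5 of 6 were lower. The sum of 8 of 8 microglia and macrophage markers, led by Csf1r, was 134 with vehicle and 215 with FGF1, and 7 of 8 were higher and 1, P2ry12, was lower. The 5 of 5 neuron markers, led by Snap25, summed to 3416 and 2691, and 3 of 5 were lower. The 5 of 5 endothelial markers, led by Slco1a4 with vehicle and Flt1 with FGF1, summed to 169.7 and 196, and 1 was higher and 1 lower. Medians for 6 of 7 tanycyte markers, led by Col23a1, were 131 and 91.7, and for 5 of 5 ependymal markers, led by Ccdc153 with vehicle and Rsph1 with FGF1, 58.4 and 34.7. For 4 of 4 markers of oligodendrocyte precursors, led by Pdgfra, they were 180.4 and 130.3, and for 2 of 4 choroid plexus markers, led by Clic6, 48.0 and 22.9. No measured marker was at 0 in all mice of a group. Vehicle replicate 2 had the highest astrocyte, neuron, endothelial, tanycyte, choroid plexus and hypothalamic marker sums of the 4 vehicle-treated mice, at 4001, 3961, 225, 168, 52.5 and 1619.

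The labelled tissue was checked against 10 hypothalamic markers, all 10 measured. Their sum had a median of 1409 with vehicle and 1017 with FGF1 on Day 1, with Pmch the most abundant. On Day 5 the median was 578 in the non-diabetic and 700.4 in the diabetic vehicle group and 539 with FGF1, with Avp the most abundant. On Day 42, FGF1 replicate 5 stood apart, with a hypothalamic sum of 456, a cortex and hippocampus sum of 596 and a choroid plexus sum of 163. The other 9 mice of that day had hypothalamic sums of 699 to 1253, cortex and hippocampus sums of 23.7 to 99.6 and choroid plexus sums of 18.9 to 39.0. On Day 5, vehicle replicate 1 stood apart in each group, with cortex and hippocampus sums of 68.3 (non-diabetic) and 79.8 (diabetic), where the other 6 mice had 16.3 to 25.0 and 14.1 to 32.8. Sums of cortex and hippocampus markers reached at most 8.12 with vehicle and 12.2 with FGF1 on Day 1, and those of erythrocyte markers at most 7.88 and 11.0. Skeletal muscle, represented by Acta1 alone of 4 listed genes, reached at most 3.04 and 2.30.

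Isoform ratios were taken within each library, from normalized counts with 0.5 added, and 9 pairs were compared in 5 comparisons by 45 two-sided exact permutation tests over mice. Adding 0.1 in place of 0.5 changed no count of ratios that passed. On Day 1, 4 of the 9 ratios differed after Benjamini-Hochberg adjustment over the 45 tests, each with an exact p of 0.00200, the smallest that 10 against 4 mice can give, and an adjusted value of 0.00899. The log2 ratio of Ldha to Ldhb lay between -0.67 and -0.48 in the 4 vehicle-treated mice. With FGF1 it ran from -0.02 through a median of 0.55 to 0.62, so the mean moved from -0.58 to 0.45, a shift of 1.04. Hk2 over Hk1 shifted by 0.71, Aldoa over Aldoc by 0.59 and Eno1 over Eno2 by 0.44. In each of these 4 ratios, 10 of 10 FGF1-treated mice lay above all 4 vehicle-treated mice. The ratios of Slc16a1 to Slc16a7, of Pfkp to Pfkm, of Slc2a1 to Slc2a3, of Pygb to Pygm and of Pdk4 to Pdk2 did not pass.

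**Figure D3:**
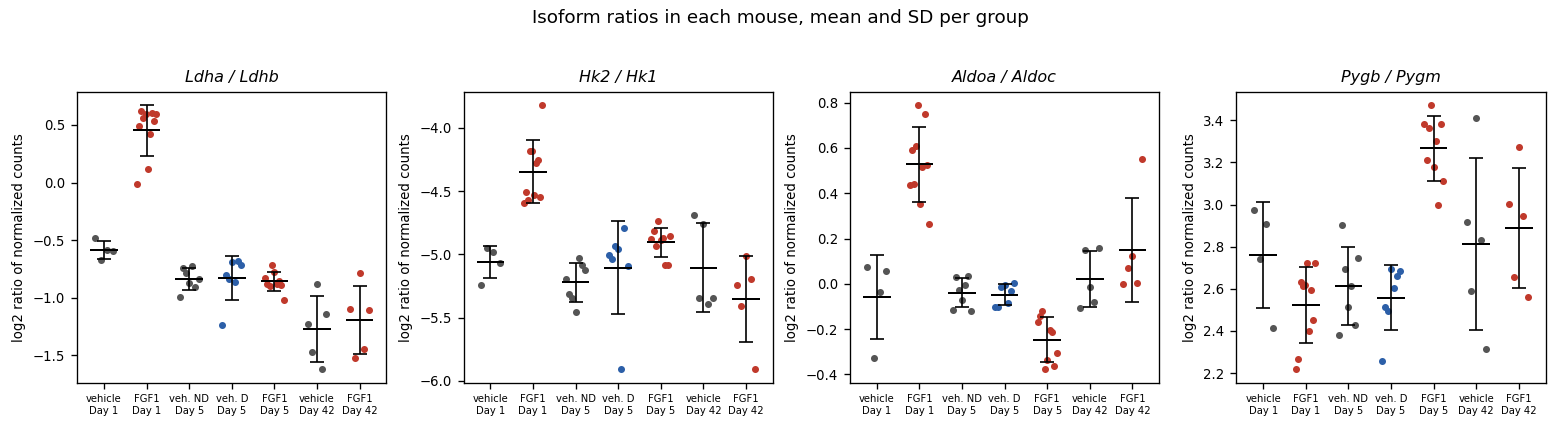
Log2 ratios of normalized counts (0.5 added to each) of 4 isoform pairs in each mouse, with the mean and SD of each group (ND: non-diabetic vehicle; D: diabetic vehicle). On Day 1 the ratio of Ldha to Ldhb lay from -0.02 to 0.62 in FGF1-treated mice and from -0.67 to -0.48 in vehicle-treated mice, and on Day 5 that of Pygb to Pygm lay from 3.00 to 3.47 with FGF1.

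On Day 5 the brain and muscle glycogen phosphorylases moved in opposite directions, and no other of the 37 genes passed in the fit of all libraries. With the libraries of Day 5 fitted alone, 2 were higher and 10 lower against the non-diabetic vehicle group and 6 higher and 11 lower against the diabetic one. Against the non-diabetic vehicle group 1 of 37 was higher, beside 3.25% of all genes, and 1 of 37 was lower, beside 1.40%. Against the diabetic vehicle group 1 of 37 was higher, beside 5.79% of all genes, and 1 of 37 was lower, beside 3.42%. These shares were near those of all genes. With an absolute log2 FC above 0.5 as well, 0 of 37 passed in either comparison (edgeR). Over all 14221 genes that rule gave 186 higher and 33 lower against the non-diabetic group, and 335 and 71 against the diabetic one. An unadjusted p-value under 0.05 (edgeR) was found for 4 and 7 of the 37, beside 2348 and 3097 of all genes. DESeq2 called the same numbers as edgeR, 1 higher and 1 lower, against each vehicle group. The FGF1 group serves in both comparisons, so they share its 9 mice and are given side by side. The median log2 FC of the 37 was -0.03 against the non-diabetic and -0.06 against the diabetic vehicle group, beside -0.01 over all genes in both.

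Pygb, lower on Day 1, was higher on Day 5. It ran from 333 through a median of 353 to 359 normalized counts in the 7 non-diabetic vehicle-treated mice and from 320.3 through 335 to 368 in the 7 diabetic ones. In the 9 FGF1-treated mice it ran from 380.3 through 411 to 435, and all 9 lay above every mouse of both vehicle groups. The means were 410.1 ± 14.5 (SD, n = 9), 349 ± 11.0 (SD, n = 7) and 339.7 ± 16.4 (SD, n = 7). The log2 FC was 0.23 ± 0.05 (SE, adjusted p = 0.00180, edgeR) against the non-diabetic and 0.27 (adjusted p = 0.000147, edgeR) against the diabetic vehicle group.

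Pygm, the muscle phosphorylase (chr19:6384399-6398459), fell on Day 5. It ran from 46.6 through a median of 54.1 to 68.3 normalized counts in the non-diabetic and from 51.3 through 56.9 to 68.5 in the diabetic vehicle group. With FGF1 it ran from 36.4 through 43.5 to 50.1. Of the 9 FGF1-treated mice, 8 lay below every non-diabetic and 9 below every diabetic vehicle-treated mouse. Mean Pygm was 42.3 ± 3.97 (SD, n = 9) with FGF1, against 57.0 ± 7.15 and 57.4 ± 5.59 (SD, n = 7 each). The log2 FC was -0.43 (adjusted p = 0.0143, edgeR) and -0.44 (adjusted p = 0.00692, edgeR). The highest Pygm value of each vehicle group was that of replicate 1, the mouse with the highest cortex and hippocampus marker sum. Without that mouse, a fit chosen after seeing the data, the log2 FC of Pygm was -0.38 and -0.40 (adjusted p = 0.0473 and 0.0238 in edgeR). Per kb, Pygb was the more abundant, at 89.2 ± 2.81 normalized counts in the non-diabetic vehicle group of Day 5. The log2 ratio of Pygb to Pygm was higher with FGF1 by 0.66 and 0.71, each with an exact permutation p of 0.000175, the smallest possible, and an adjusted value of 0.00262.

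On Day 5, 3 of the 9 isoform ratios passed against each vehicle group. The log2 ratio of Aldoa to Aldoc differed by -0.21 with FGF1 against the non-diabetic vehicle group (exact permutation p = 0.000350, adjusted 0.00393) and by -0.20 against the diabetic one (exact permutation p = 0.000175, adjusted 0.00262). Hk2 over Hk1 was higher by 0.32 against the non-diabetic vehicle group (exact permutation p = 0.00122, adjusted 0.00899), with 7 of 9 FGF1-treated mice above all 7 vehicle-treated mice. Against the diabetic vehicle group the same ratio differed by 0.20 and did not pass. Slc16a1 over Slc16a7 differed by -0.41 against the diabetic vehicle group (exact permutation p = 0.000699, adjusted 0.00629), with 8 of 9 below. Against the non-diabetic vehicle group that ratio differed by -0.28, with 2 of 9 below, and did not pass (exact permutation p = 0.0126, adjusted 0.0515). A difference of these ratios between days was not tested.

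The spread between mice was smaller on Day 5, with a median SD over all genes of 0.107 to 0.116 on the log2 scale, against 0.190 to 0.237 in the groups of Days 1 and 42. In the fit of Day 5 alone, the 2 higher and 10 lower of 37 genes against the non-diabetic vehicle group stood beside 11.8% and 9.13% of all genes. The 6 higher and 11 lower against the diabetic vehicle group stood beside 16.7% and 14.2%. Lower against both were Slc2a3, Gpi1, Pfkm, Aldoa, Tpi1, Eno1, Eno2, Pkm, Tkt and Pygm, and Gapdh was lower against the diabetic group alone. Aldoa had log2 FC of -0.13 and -0.14 there (adjusted p = 0.000502 and 0.000112 in edgeR), and Gpi1 of -0.12 and -0.18 (adjusted p = 0.00364 and 4.40e-05 in edgeR). Tkt had log2 FC of -0.20 and -0.24 (adjusted p = 9.37e-07 and 3.12e-08 in edgeR) in that fit. Its normalized counts ran from 228 through a median of 243 to 255 with FGF1, from 269 to 287 in the non-diabetic and from 280.2 to 299 in the diabetic vehicle group, with no overlap. Higher against both were Pygb and the MCT2 gene Slc16a7, and Pfkfb3, Pdk1, Taldo1 and Gys1 were higher against the diabetic group alone.

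Marker sums of Day 5 are given as medians, with calls in edgeR, and their part in these results was not tested. Astrocyte markers (7 of 7, led by Slc1a2) had a median sum of 4299 with FGF1, 3565 in the non-diabetic and 3447 in the diabetic vehicle group, and 5 and 4 of 7 were higher against these groups. Oligodendrocyte markers (6 of 6) had 6233, 4385 and 4225, and 3 and 4 of 6 were higher. Precursor markers (4 of 4, led by Gpr17 with FGF1 and Pdgfra with vehicle) had 354, 232 and 223, and 1 of 4, Gpr17, was higher against each group, by 1.80 and 1.85 on the log2 scale. Microglia and macrophage markers (8 of 8, led by Csf1r) had 279, 195 and 186, and 4 and 6 of 8 were higher. Non-diabetic vehicle replicate 2 stood apart, with a sum of 312 where the other 6 mice of its group had 184 to 202, and without it the same 2 members, Pygb and Pygm, passed. Neuron markers (5 of 5, led by Snap25) had 2018, 2135 and 2198, and 0 of 5 passed against either group (edgeR), with 1 at an unadjusted p-value under 0.05 in each. Endothelial markers (5 of 5, led by Slco1a4) had 224, 212 and 213, and 1 of 5, Pecam1, was higher against the non-diabetic and 2, Pecam1 and Ly6c1, against the diabetic group. Tanycyte markers (6 of 7 measured, led by Scn7a) had 100.5, 92.0 and 89.7, and 1 of 6, Gpr50, was higher against each group, by 0.90 and 0.83 on the log2 scale. Ependymal markers (5 of 5, led by Foxj1) had 48.7, 44.2 and 42.9, and in edgeR 0 of 5 (2 at an unadjusted p-value under 0.05) and 1 of 5, Dynlrb2, were higher. Choroid plexus markers (2 of 4 measured, led by Clic6) had 25.4, 27.6 and 28.3, and 0 of 2 passed in edgeR, with 0 at an unadjusted p-value under 0.05. None of the markers of these lists was lower. None of these markers was at 0 in all mice of a group.

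The vehicle groups of Day 5, labelled diabetic and non-diabetic, were compared to see whether the label went with a difference in these genes. In edgeR 0 of 37 genes passed in either direction, beside 0% of all genes. An unadjusted p-value under 0.05 (edgeR) was found for 193 of all 14221 genes and for 0 of the 37. DESeq2 and limma also called 0. Their log2 FC, diabetic against non-diabetic, ran from -0.08 to 0.19. None of the 9 isoform ratios passed, and 0 of 9 had an unadjusted exact p under 0.05.

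On Day 42, 0 of 37 genes passed in either direction in edgeR, beside 0% of all genes. An unadjusted p-value under 0.05 (edgeR) was found for 776 of all 14221 genes and for 0 of the 37. DESeq2 and limma also called 0, and 0 passed when any of the 10 mice was left out, including FGF1 replicate 5 with its high cortex marker sum. The log2 FC ran from -0.23 to 0.26, with a median of 0.01 beside -0.01 over all genes. Hk2 stood at 7.49, 6.29, 7.82, 5.11 and 6.04 normalized counts with vehicle and at 5.63, 5.37, 7.08, 5.46 and 4.28 with FGF1. Pfkfb3 stood at 67.2, 60.8, 61.8, 55.3 and 53.4 with vehicle and at 62.2, 56.1, 60.2, 53.8 and 54.1 with FGF1. The values of both genes overlapped between the groups. Slc2a1 stood at 55.0, 83.6, 57.0, 60.0 and 116 with vehicle and at 74.6, 74.9, 71.1, 52.9 and 76.6 with FGF1, and vehicle replicate 5 was the highest. None of the 9 isoform ratios passed, and 0 of 9 had an unadjusted exact p under 0.05.

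The FGF1 effect itself was compared between days, with the non-diabetic vehicle group as control on each. From Day 1 to Day 5 the effect on 6 of 37 genes moved up, beside 12.4% of all genes, and on 12 of 37 it moved down, beside 14.2%. From Day 1 to Day 42 it moved up for 5 of 37, beside 11.2% of all genes, and down for 11 of 37, beside 14.3%. With DESeq2 size factors 7 of 37 moved down from Day 1 to Day 42, and over all genes 2107 moved up and 1638 down, where TMM factors gave 1594 and 2029. From Day 1 to Day 5 the size factors gave 2128 up and 1713 down over all genes, and TMM factors 1770 and 2014. Between Days 5 and 42 it differed for 0 of 37 (edgeR and DESeq2), beside 0.295% and 0.647% of all genes. An unadjusted p-value under 0.05 (edgeR) was found for 3 of 37, beside 1419 of all 14221 genes. Pfkfb3 had the largest drop from Day 1 to Day 5, with a difference in log2 FC of -0.99 ± 0.14 (SE) and adjusted p = 2.00e-07 in edgeR, and Hk2 had the largest to Day 42, with -1.24 ± 0.19 (SE, adjusted p = 2.05e-06, edgeR). Pygb moved up by 0.74 ± 0.08 (SE, adjusted p = 1.15e-10, edgeR) to Day 5 and by 0.54 ± 0.08 (SE, adjusted p = 2.60e-06, edgeR) to Day 42. Differences beyond 0.5 that passed in both comparisons were also found downward for Slc2a1, Ldha, Slc16a1 and Tkt and upward for Pdk4. Eno1 moved down by 0.56 to Day 5 (adjusted p = 0.0219, edgeR), and its difference of -0.53 to Day 42 had an adjusted p-value of 0.0540 in edgeR. Pdk2 moved up by 0.49 to Day 5 (adjusted p = 0.0139, edgeR) and by 0.60 to Day 42 (adjusted p = 0.00464, edgeR). In a fit without vehicle replicate 2 of Day 1, chosen after seeing the data, 6 genes moved up and 9 down to Day 5, and 5 up and 7 down to Day 42. Over all genes that fit gave 1297 up and 1605 down, and 1244 up and 1644 down. When each of the 14 mice of Day 1 was left out in turn, 5 to 7 moved up and 9 to 17 down to Day 5, and 4 to 5 up and 7 to 15 down to Day 42, the 17 and the 15 both without vehicle replicate 4. Leaving out FGF1 replicate 10 gave 7 up and 16 down to Day 5 and 5 up and 14 down to Day 42. Without vehicle replicate 2 of Day 1, the differences to Day 5 of Eno1 and Slc2a1 were -0.40 and -0.52. Neither passed (adjusted p = 0.128 and 0.0583 in edgeR). That of Slc2a1 did not pass without vehicle replicate 3 either (adjusted p = 0.0609, edgeR). Since each day was 1 preparation, a difference between days and one between preparations cannot be told apart.

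Levels of 7 genes are given in every group, as means with SD of normalized counts. Slc2a1 was at 109.8 ± 7.20 and 110.0 ± 5.29 in the non-diabetic and diabetic vehicle groups of Day 5 and at 111 ± 12.3 with FGF1, and at 74.4 ± 26.1 with vehicle and 70.0 ± 9.75 with FGF1 on Day 42. Slc2a3 was at 140.3 ± 14.6 and 173 ± 10.8 on Day 1 (vehicle, then FGF1), at 151 ± 5.65, 150.2 ± 9.94 and 138 ± 4.06 on Day 5 and at 154 ± 13.8 and 161 ± 9.61 on Day 42. Hk1 was at 295 ± 55.7 and 350.3 ± 36.8 on Day 1, at 209.9 ± 9.58, 215 ± 10.1 and 205 ± 11.5 on Day 5 and at 241 ± 28.7 and 246 ± 25.6 on Day 42. Hk2 was at 5.18 ± 0.786, 5.92 ± 1.32 and 6.37 ± 0.453 on Day 5 and at 6.55 ± 1.11 and 5.56 ± 1.00 on Day 42. For both hexokinases the FGF1 group of Day 1 had the highest mean of the 7 groups, and the vehicle group of Day 1 had the next. In that ranking a difference between days cannot be told apart from one between preparations.

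Pfkfb3 was at 25.6 ± 2.24 in the non-diabetic and 24.3 ± 2.86 in the diabetic vehicle group of Day 5 and at 27.4 ± 1.38 with FGF1, and at 59.7 ± 5.47 and 57.3 ± 3.78 on Day 42 (vehicle, then FGF1). Vehicle-treated mice of Day 5 were thus below those of Days 1 and 42 for Pfkfb3, a difference that cannot be told apart from one between preparations. Ldha was at 147 ± 5.77, 148 ± 11.5 and 144 ± 4.20 on Day 5 and at 157 ± 34.7 and 169 ± 31.2 on Day 42. Ldhb was at 322 ± 35.9 and 253 ± 33.2 on Day 1, at 262 ± 8.67, 263 ± 19.1 and 261 ± 11.6 on Day 5 and at 381 ± 81.0 and 387 ± 68.3 on Day 42. Per kb, Ldhb exceeded Ldha with vehicle on Day 1, at 247 ± 27.5 against 114 ± 17.1 (SD, n = 4). With FGF1 on Day 1 the per-kb levels were 194 ± 25.5 for Ldhb and 183 ± 24.7 for Ldha (SD, n = 10), which differed by less than their spread between mice.

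Beyond the 37, a list of 69 other genes of these pathways was read, of which 62 were in the table. On Day 1, 14 of the 62 were higher and 20 lower, beside 23.4% and 21.6% of all genes, and their median log2 FC was -0.12. With an absolute log2 FC above 0.5 as well, 6 were higher and 10 lower, beside 11.5% and 8.05% of all genes. Ppp1r3g, a glycogen-targeting subunit of protein phosphatase 1, rose by 3.03 ± 0.38 (SE, adjusted p = 8.82e-09, edgeR), from 0.379 ± 0.125 normalized counts (SD, n = 4) to 3.31 ± 1.34 (SD, n = 10), with 9 of 10 FGF1-treated mice above all vehicle-treated mice. The catalytic phosphorylase kinase subunit Phkg1 fell by 1.25 (adjusted p = 1.45e-09, edgeR), from 26.8 ± 1.51 to 11.0 ± 5.15 normalized counts, with 10 of 10 below. Pgm1, of the phosphoglucomutase family, rose by 0.98 (adjusted p = 9.13e-10, edgeR), from 11.2 ± 1.25 to 21.7 ± 3.82, with 10 of 10 above. In all, 7 of 22 further glycogen genes were higher and 7 lower.

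Slc2a4, which encodes the insulin-responsive transporter GLUT4, fell by 2.11 (adjusted p = 6.77e-09, edgeR), at 1.63 ± 1.34 normalized counts in FGF1-treated and 7.05 ± 0.801 in vehicle-treated mice, with 10 of 10 FGF1-treated mice below every vehicle-treated mouse. The transporter gene Slc2a12 fell by 0.80 (adjusted p = 0.000244, edgeR). Slc16a3, which encodes the lactate exporter MCT4, rose by 1.50 (adjusted p = 2.95e-06, edgeR), from 1.19 ± 0.488 to 3.69 ± 1.60 normalized counts, with 10 of 10 above. Slc16a8 passed as lower with at most 6 counts in any library of Day 1, so no fold is given. H6pd, the glucose 6-phosphate dehydrogenase of the endoplasmic reticulum, rose by 1.13 (adjusted p = 1.00e-09, edgeR), and Rbks, a ribokinase, fell by 0.67 (adjusted p = 0.00369, edgeR). Hk3 rose by 0.92 (adjusted p = 0.000679, edgeR), while Eno3, the enolase isoform best known from muscle, fell by 0.63 (adjusted p = 3.12e-05, edgeR). Counts by step were 0 higher and 3 lower of 7 transporters, 3 and 0 of 5 hexokinase and phosphofructokinase genes, 1 and 2 of 4 in lower glycolysis, 1 and 3 of 8 in lactate and pyruvate transport, 0 and 3 of 8 in pyruvate dehydrogenase and 2 and 2 of 8 in pentose phosphate.

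On Day 5, 1 of the 62 was higher and 0 lower against the non-diabetic vehicle group (edgeR), beside 3.25% and 1.40% of all genes. An unadjusted p-value under 0.05 (edgeR) was found for 2348 of all 14221 genes and for 10 of the 62. Against the diabetic vehicle group 2 were higher and 3 lower, beside 5.79% and 3.42%. The gene higher in both was Pygl, the liver phosphorylase, by 0.31 each time (adjusted p = 0.0245 and 0.0146, edgeR). Slc2a4 was lower against the diabetic vehicle group, with a log2 FC of -0.81 (adjusted p = 0.0249, edgeR), with all 9 FGF1-treated mice below all 7 of that group. On Day 42, 0 of the 62 passed in edgeR, with 3 at an unadjusted p-value under 0.05, beside 776 of all 14221 genes.

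Promoter windows are shown because several members rose or fell together on Day 1. Each window holds 250 bases before and 50 after an annotated start, from RefSeq on GRCm38.p6, and 35 of the 37 genes were matched by symbol. Slc2a3 and Slc16a7 were not. The motifs ACGTG, which is the core of hypoxia response elements, and CACGTG, the E-box, were searched on both strands, and each CACGTG also holds ACGTG on both strands. ACGTG was in at least 1 window of 19 of the 35 genes (54.3%), beside 21.8% of 27025 genes with a window. By window it was in 23 of 53, beside 19.6% of 32851. CACGTG was in windows of 6 of 35 genes, beside 8.09% of all genes, and TGANTCA, the AP-1 motif, in 1 of 35 (Aldoa), beside 8.97%. ACGTG was in 7 of the 15 matched genes that were higher on Day 1, in 4 of 7 that were lower and in 8 of 13 that did not pass. The windows were not matched for base composition, and a match is a description of letters and not a site. The windows printed here are all 10 of the 8 members that passed the stricter rule with the fold on Day 1, in lower case with ACGTG or its reverse complement CACGT in capitals, 5′ to 3′ on the strand of the gene.
Slc2a1 chr4:119108495-119108794 (plus strand): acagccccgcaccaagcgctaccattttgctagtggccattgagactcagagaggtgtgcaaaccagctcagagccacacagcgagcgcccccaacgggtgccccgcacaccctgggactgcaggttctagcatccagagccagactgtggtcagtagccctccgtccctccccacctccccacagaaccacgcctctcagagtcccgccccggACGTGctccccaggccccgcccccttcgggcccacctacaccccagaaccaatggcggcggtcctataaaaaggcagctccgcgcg
Hk2 chr6:82774405-82774704 (minus strand): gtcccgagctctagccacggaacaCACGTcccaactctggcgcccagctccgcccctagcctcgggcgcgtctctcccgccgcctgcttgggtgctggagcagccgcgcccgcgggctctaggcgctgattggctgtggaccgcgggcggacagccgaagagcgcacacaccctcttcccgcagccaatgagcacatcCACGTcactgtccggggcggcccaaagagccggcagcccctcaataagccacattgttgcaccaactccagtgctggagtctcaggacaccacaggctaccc
Pfkl chr10:78009758-78010057 (minus strand): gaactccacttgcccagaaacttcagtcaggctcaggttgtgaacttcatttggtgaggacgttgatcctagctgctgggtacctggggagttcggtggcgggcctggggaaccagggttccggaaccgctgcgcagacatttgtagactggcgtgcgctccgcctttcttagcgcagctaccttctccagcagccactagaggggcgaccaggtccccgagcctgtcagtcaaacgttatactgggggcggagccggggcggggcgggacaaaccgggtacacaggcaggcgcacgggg
Pfkfb3 chr2:11502041-11502340 (minus strand): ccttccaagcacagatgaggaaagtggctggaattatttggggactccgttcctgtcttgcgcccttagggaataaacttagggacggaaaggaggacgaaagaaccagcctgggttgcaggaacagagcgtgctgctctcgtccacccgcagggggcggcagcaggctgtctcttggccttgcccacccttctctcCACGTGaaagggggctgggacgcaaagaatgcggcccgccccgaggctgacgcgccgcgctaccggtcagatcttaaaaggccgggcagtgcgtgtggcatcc
Pfkfb3 chr2:11553880-11554179 (minus strand): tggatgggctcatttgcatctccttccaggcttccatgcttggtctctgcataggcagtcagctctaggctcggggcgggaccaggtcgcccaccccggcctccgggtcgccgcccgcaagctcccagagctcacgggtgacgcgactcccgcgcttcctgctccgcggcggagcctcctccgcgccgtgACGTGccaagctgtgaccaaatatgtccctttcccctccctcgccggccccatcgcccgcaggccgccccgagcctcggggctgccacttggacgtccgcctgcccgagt
Ldha chr7:46845554-46845853 (plus strand): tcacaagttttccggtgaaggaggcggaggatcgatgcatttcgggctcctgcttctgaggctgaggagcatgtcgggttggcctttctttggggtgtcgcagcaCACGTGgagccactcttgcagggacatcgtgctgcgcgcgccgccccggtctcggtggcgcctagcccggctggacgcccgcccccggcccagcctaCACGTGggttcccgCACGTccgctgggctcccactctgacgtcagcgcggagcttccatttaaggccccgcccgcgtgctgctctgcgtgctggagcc
Ldha chr7:46846832-46847131 (plus strand): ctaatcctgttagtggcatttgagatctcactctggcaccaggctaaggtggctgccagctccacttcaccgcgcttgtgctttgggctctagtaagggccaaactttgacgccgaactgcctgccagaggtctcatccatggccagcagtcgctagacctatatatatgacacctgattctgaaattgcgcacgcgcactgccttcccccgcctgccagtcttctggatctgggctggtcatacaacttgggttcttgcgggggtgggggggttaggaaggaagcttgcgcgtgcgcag
Slc16a1 chr3:104638414-104638713 (plus strand): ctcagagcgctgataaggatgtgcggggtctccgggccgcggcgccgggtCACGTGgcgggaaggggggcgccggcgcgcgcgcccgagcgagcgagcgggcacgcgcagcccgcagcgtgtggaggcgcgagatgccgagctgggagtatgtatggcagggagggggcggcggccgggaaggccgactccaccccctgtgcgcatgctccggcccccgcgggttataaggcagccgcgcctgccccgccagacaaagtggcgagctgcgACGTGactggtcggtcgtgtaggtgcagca
Tkt chr14:30548881-30549180 (plus strand): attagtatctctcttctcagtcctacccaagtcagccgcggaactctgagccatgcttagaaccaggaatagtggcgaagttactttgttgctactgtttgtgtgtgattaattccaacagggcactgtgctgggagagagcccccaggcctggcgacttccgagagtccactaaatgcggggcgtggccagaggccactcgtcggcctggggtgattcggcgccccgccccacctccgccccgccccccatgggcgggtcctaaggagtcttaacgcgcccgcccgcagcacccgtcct
Pygb chr2:150786546-150786845 (plus strand): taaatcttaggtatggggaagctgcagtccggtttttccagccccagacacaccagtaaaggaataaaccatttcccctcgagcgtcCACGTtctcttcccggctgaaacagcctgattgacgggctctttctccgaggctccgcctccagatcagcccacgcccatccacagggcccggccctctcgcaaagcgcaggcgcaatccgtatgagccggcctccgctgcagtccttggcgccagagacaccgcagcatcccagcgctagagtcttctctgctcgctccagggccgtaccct
The first Ldha window holds CACGTG at 2 places and CACGT at a further one, and the first of Pfkfb3 and that of Slc16a1 hold CACGTG at 1 place each. The windows of Pfkl and Tkt and the second of Ldha hold none of these motifs, and the Pygb window, of a gene that fell, holds CACGT at 1 place.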

How the data were processed

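The authors aligned reads with STAR and deposited raw counts per gene, in 1 table of 14221 genes and 47 libraries. The labels name the genome build GRCh38 for these mouse samples, and the counting program was not given in the sources used here. Counts were scaled by TMM factors and fitted in edgeR 4.0.16 (R 4.3.3) with 1 mean for each of 7 groups and quasi-likelihood F tests. P-values were adjusted by the Benjamini-Hochberg method over 14221 genes. No gene was removed by the low-count filter. Alternatives used DESeq2 1.42.0, its size factors in edgeR, limma 3.58.1 after quantile normalization, other filters, the libraries of 1 day alone, both vehicle groups of Day 5 as control and fits with libraries left out, of which those of Day 1 and of day differences without an FGF1 replicate of Day 1 other than replicate 1, of day differences without a vehicle replicate of Day 1, and of Day 5 without vehicle replicates 1 or 2, were chosen after seeing the data. The scripts were first run on simulated counts.

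Every member that passed was named in each comparison within a day. Values for each mouse were given for those with an absolute log2 FC above 0.5 as well or, where fewer than 4 did, for up to 4 with the smallest adjusted p-values. Differences between days were named at the same 2 thresholds, as were up to 3 genes of each other list. Levels of 7 genes were given in every group. The members and lists were chosen with earlier results of these data known. Lengths and coordinates came from GENCODE M21 on GRCm38. Genes absent from the table were not analysed here, and some single-gene results are not reported here.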

Additional observations from a re-analysis of the deposited data

Results flagged for a closer look

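In 168 groups of values, of 24 genes in 7 groups, a Dixon test for 1 outlying mouse found 10. At its threshold chance gives about 1 in 20 groups. In FGF1-treated mice of Day 1, Pfkfb3 was at 73.1 normalized counts in replicate 6 and at 118 to 142 in the others, and Pdk4 was at 15.8 in replicate 10 and at 9.43 to 12.6 in the others. In FGF1-treated mice of Day 5, replicate 4 had Pdk4 at 16.6, with the others at 8.64 to 11.0, and Gbe1 at 18.7, with the others at 23.7 to 28.3. In FGF1-treated mice of Day 42, Slc2a1 was at 52.9 in replicate 4 and at 71.1 to 76.6 in the others, and Pdk4 was at 20.3 in replicate 5 and at 14.1 to 15.8 in the others.

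Among vehicle-treated mice, Pygm on Day 1 was at 66.0 in replicate 4 and at 45.3 to 45.9 in the others. In the diabetic vehicle group of Day 5, Hk2 was at 3.00 in replicate 5 and at 5.92 to 6.80 in the others, and Pygm was at 68.5 in replicate 1 and at 51.3 to 58.3 in the others. On Day 42, Ldha was at 217 in replicate 5 and at 132 to 152 in the others.

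The effect of FGF1 on several genes differed between days beyond both thresholds. For Day 5 minus Day 1, the difference in log2 FC was -0.60 for Slc2a1, -0.72 for Hk2, -0.99 for Pfkfb3, -0.56 for Eno1, -0.72 for Ldha, -0.73 for Slc16a1 and -0.87 for Tkt. It was 0.55 for Pdk4 and 0.74 for Pygb. The differences of Eno1 and Slc2a1 without vehicle replicate 2 of Day 1 were -0.40 and -0.52 and did not pass (adjusted p = 0.128 and 0.0583 in edgeR). For Day 42 minus Day 1, it was -0.70 for Slc2a1, -1.24 for Hk2, -1.14 for Pfkfb3, -0.58 for Ldha, -0.73 for Slc16a1 and -0.75 for Tkt. It was 0.60 for Pdk2, 0.62 for Pdk4 and 0.54 for Pygb.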

How the results depend on the processing

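No paired analysis was possible because each mouse gave 1 library and no label links a treated mouse to a control mouse. Each day had 1 preparation code, and Day 1 had 4 vehicle-treated mice. On Day 1, 10 of 37 genes were higher when that day was fitted alone, 10 to 18 when each of the 14 libraries of that day was left out in turn and 7 with an absolute log2 FC above 0.5 added. Over all genes, 3322 of 14221 were higher in the main fit and 2471 of 14019 in that day alone. In the 14 fits 2731 to 3421 of all genes were higher, and with the fold 1631. The count of lower members was 6 to 8 in those 14 fits, beside 2279 to 3291 of all genes. With that fold added it was 1, beside 1145. The 9 fits that left out an FGF1 replicate other than replicate 1 were chosen after seeing the data. On Day 5 against the non-diabetic vehicle group, the day fitted alone gave 2 higher and 10 lower, both vehicle groups as control gave 1 higher and 2 lower, and the added fold gave 0 and 0. Over all genes, in the same order, the counts were 1678 and 1298, 1035 and 637, and 186 and 33. Against the diabetic vehicle group the day fitted alone gave 6 higher and 11 lower, and the added fold gave 0 and 0. Over all genes these were 2370 and 2015, and 335 and 71. For the effect of Day 42 minus that of Day 1, 11 genes were lower in edgeR with TMM factors, 7 with DESeq2 size factors, 9 in DESeq2 and 7 to 15 when each library of Day 1 was left out in turn, in fits of which 13 were chosen after seeing the data. For Day 5 minus Day 1 it was 12 with all libraries and 9 to 17 in such fits. Over all genes, such fits gave 1644 to 2188 lower for Day 42 minus Day 1 and 1605 to 2213 for Day 5 minus Day 1. With TMM factors 44.0% of all called genes were higher for Day 42 minus Day 1, and with size factors 56.3%. For Day 5 minus Day 1 the shares were 46.8% and 55.4%, and on Day 1 they were 51.9% and 42.9%. No named difference reversed its sign in any alternative. The cause of these differences between settings was not tested.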

Other observations

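Targets of neighbouring programs were read from 4 further lists. On Day 1, 23.4% of all genes were higher and 21.6% lower. Of the lists, 3 of 7 PPAR and fasting targets were higher and 3 lower. Of 6 glucose-sensing factors, 2 were higher and 2 lower on Day 1. Txnip, which restrains glucose uptake, fell by 1.66 (adjusted p = 1.24e-09, edgeR), with 10 of 10 FGF1-treated mice below every vehicle-treated mouse, while its relative Arrdc4 rose by 0.68 (adjusted p = 3.39e-06, edgeR).

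Of 12 measured HIF targets outside glycolysis, 4 were higher and 3 lower on Day 1. Adm, a vasodilator peptide, rose by 2.23 (adjusted p = 1.61e-07, edgeR) and P4ha1, a collagen hydroxylase subunit, by 0.87 (adjusted p = 5.43e-10, edgeR), while Ddit4, an inhibitor of mTORC1 signalling, fell by 0.82 (adjusted p = 2.22e-05, edgeR). Of 7 glucocorticoid targets, 1 was higher and 2 lower, with Tsc22d3 falling by 1.36 (adjusted p = 3.80e-13, edgeR) and Fkbp5 rising by 0.73 (adjusted p = 0.000297, edgeR). On Day 5 against the non-diabetic vehicle group, where 3.25% of all genes were higher and 1.40% lower, 2 of 7 PPAR and fasting targets were higher, 1 of 12 HIF targets and 1 of 7 glucocorticoid targets were lower, and 0 of 6 glucose-sensing factors passed in edgeR, with 1 at an unadjusted p-value under 0.05. Against the diabetic vehicle group, where 5.79% of all genes were higher and 3.42% lower, 3 of 7 PPAR and fasting targets and 1 of 6 glucose-sensing factors were higher, and 1 of 12 HIF targets and 3 of 7 glucocorticoid targets were lower. Sgk1 and Per1, both glucocorticoid targets, fell by 0.76 and 0.66 there (adjusted p = 0.0248 and 0.00750 in edgeR), and Mlxipl, a glucose-sensing transcription factor, rose by 0.57 (adjusted p = 0.0462, edgeR). On Day 42, 0 genes of these 4 lists passed in edgeR, with 2 HIF targets at an unadjusted p-value under 0.05.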
